A study of Mus musculus with 27 samples.

Results

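The semaphorins, their plexin receptors and the neuropilin coreceptors were followed through the growth of the fetal mouse brain. Members were the genes of the read count table with a semaphorin symbol of classes 3 to 7, a plexin symbol of families A to D or a neuropilin symbol. The rule found 31 of the 55416 genes listed, namely 20 semaphorins, 9 plexins and 2 neuropilins, and all 31 had reads. RNA of whole fetal brains was sequenced from AKR/J, from C57BL/6J and from B6.Cg-Cav1tm1Mls/J, called Cav1-null here. This last strain carries a germ-line disruption of the caveolin gene Cav1 and is congenic with C57BL/6J. Mice of every strain were about 8 weeks old when mated, and the labels name no treatment. Brains were collected at day 12 (d12), day 15 (d15) and day 17 (d17) of gestation, counted from the day of the plug as day 1, with 3 libraries in each of the 9 groups. The study regards AKR/J and Cav1-null mice as short-lived and C57BL/6J mice as long-lived.

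Semaphorins are guidance proteins that steer growing axons, migrating neurons and blood vessels. Class 3 members are secreted and mostly bind a neuropilin, which has no signalling domain of its own and works together with an A-type plexin. Classes 4 to 6 cross the membrane, class 7 is held there by a lipid anchor, and most of these bind plexins directly. Plexins carry a domain that acts on small GTPases inside the cell and so change the actin skeleton of the growth cone. In the fetal brain the system is best known for repelling axons, shaping commissures and sorting cortical and cerebellar cells.

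Each library held 26363697 to 39759702 reads on genes, with a median of 29700746. Expression is given as CPM, the reads of a gene per 1000000 reads of its library after TMM scaling, and pairs of groups were compared with edgeR's quasi-likelihood test on the read counts. A gene was called changed at a Benjamini-Hochberg adjusted p under 0.05 over all genes tested. All 8 neuron markers and all 8 progenitor markers examined (among them Tubb3, Dcx, Sox2 and Nes) reached 1 CPM in each of the 9 groups, and Cav1 was at 0 to 0.509 CPM in the Cav1-null libraries against 9.24 to 39.9 CPM in the others. The libraries of AKR/J on d12 stood apart, since the summed level of 10 erythroid markers was 33204 to 197819 CPM there and 569 to 18614 CPM elsewhere. The labels do not tie the 3 libraries of a group to separate litters, so the p-values measure the spread between these libraries. In whole brain, fewer cells of a type and less RNA per cell cannot be told apart.

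Levels were compared between genes as CPM per kilobase of exon, averaged over the 27 libraries. The length was that of all annotated exons of a gene together, and the order depends on this choice. It was 9329 bases for Sema4g and 7880 for Plxna3, whose longest transcripts have 4552 and 6943 bases. On this measure the plexins led. Plxna3, a receptor for class 3 signals on chrX:73372672-73388295 of GRCm39, stood at 33.3 CPM per kilobase and was above the next gene, Plxnb2, in 24 of 27 libraries. Plxnb2 reached 22.6 and Plxnb1, the receptor of Sema4d, 19.6 CPM per kilobase. Sema4g was the most abundant semaphorin with 18.3 CPM per kilobase, and its order against Plxnb1 differed between libraries (Plxnb1 was higher in 15 of 27). The lower end held Sema3g (0.821), Sema3b (0.692), Sema3d (0.655) and Sema3e (0.639 CPM per kilobase), and neighbours in this stretch changed places between libraries. Plxnb3 was the lowest at 0.178 CPM per kilobase, below Sema3e in 27 of 27 libraries. The span from the top to Plxnb3 was 187-fold.

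In the early phase, between d12 and d15, the coreceptor Nrp1 was the only member called in the same direction in all 3 strains. Nrp1 (chr8:129085085-129231082) serves secreted semaphorins and also binds vascular endothelial growth factor. In AKR/J it was at 20.8, 17.4 and 16.6 CPM on d12 and 49.6, 56.6 and 54.3 CPM on d15. C57BL/6J had 40.3, 59.3 and 23.9 CPM on d12 and 110.03, 108 and 110.1 CPM on d15. Cav1-null brains had 42.3, 38.6 and 41.7 CPM on d12 and 67.04, 66.5 and 68.7 CPM on d15. Every d15 library lay above every d12 library of its strain. The log2 fold change was 1.51 ± 0.16 (SE; adjusted p = 0.00121) in AKR/J, 1.37 ± 0.27 (adjusted p = 0.027) in C57BL/6J and 0.72 ± 0.08 (adjusted p = 0.000801) in Cav1-null mice. With the trend of each library with GC content and transcript length removed (described below with the strains), the values were 1.25, 1.27 and 0.74 and all 3 calls stood. The C57BL/6J call was lost without d12 replicate 1 (adjusted p = 0.0774) and without d15 replicates 1, 2 or 3 (0.0893, 0.1 and 0.125).

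Between d15 and d17, Nrp1 rose further in AKR/J, to 74.2, 70.1 and 67.9 CPM (log2 fold change 0.42, adjusted p = 0.0113, lost at 0.0583 without d17 replicate 2 and at 0.235 with 1 model of all 27 libraries). On d17 it was at 113, 73.6 and 78.2 CPM in C57BL/6J and 70.1, 53.4 and 70.7 CPM in Cav1-null brains, with log2 fold changes of -0.24 and -0.05 that did not pass the test. Nrp2 is the coreceptor that prefers Sema3f. In AKR/J it was at 49.3, 44.7 and 35.9 CPM on d12, 97.4, 117 and 128 CPM on d15 and 81.7, 78.6 and 74.2 CPM on d17. It rose in the early phase by 1.35 and fell by 0.53 in the late phase on the log2 scale (adjusted p = 0.00233 and 0.00995). The late call was lost without d17 replicate 2 or 3 (0.059 and 0.0553) and with 1 model of all 27 libraries (0.232). In C57BL/6J it was at 119.5, 180.3 and 74.5, then 245, 249 and 241, then 207, 71.2 and 90.7 CPM, with log2 fold changes of 0.94 and -0.93 that did not pass the test (adjusted p = 0.0538 and 0.133). With the trend removed the early one was called (0.71, adjusted p = 0.0464). In Cav1-null mice Nrp2 stayed within 73.1 to 90.1 CPM over the 9 libraries.

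**Figure D1:**
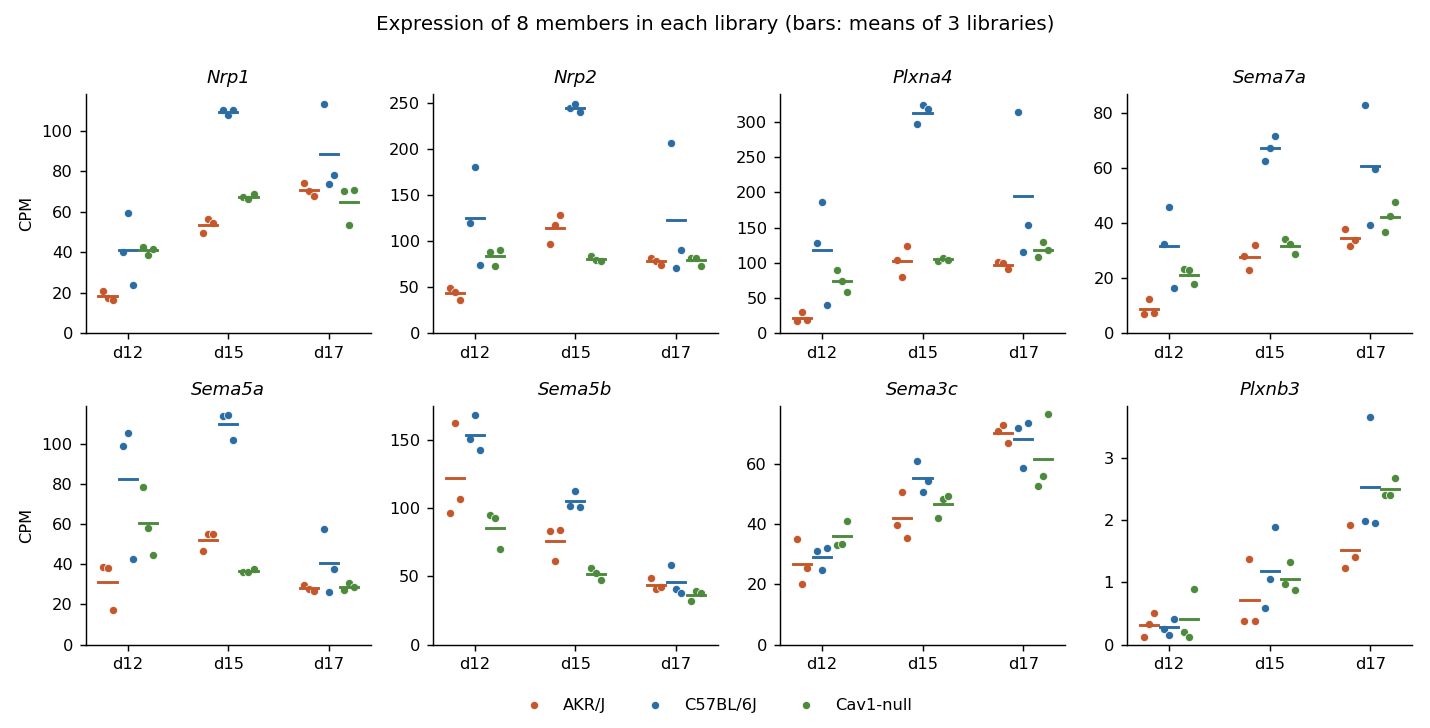
Expression of 8 members (CPM, vertical axis from 0) by day (d12, d15, d17) and strain, with 1 point for each library and a bar for the mean of 3 libraries. Nrp1 lies higher on d15 than on d12 in each strain, Sema5a and Sema5b lie lower on d17 than on d15 in each strain, and the C57BL/6J libraries of d15 have the highest mean of the 9 groups for Nrp1 (108 to 110.1 CPM), Nrp2, Plxna4 and Sema5a.

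In the late phase, between d15 and d17, the members called in all 3 strains were Sema5a and Sema5b, both lower on d17. These are the class 5 semaphorins, membrane proteins with thrombospondin repeats that can repel neurites. Sema5b (chr16:35360820-35485102) was at 96.3, 162 and 106 CPM on d12, 83.2, 61.1 and 83.6 CPM on d15 and 48.7, 40.8 and 42.04 CPM on d17 in AKR/J. C57BL/6J had 150.4, 168 and 142, then 101, 113 and 101, then 57.9, 40.6 and 38.00 CPM. Cav1-null brains had 94.5, 92.4 and 69.7, then 55.96, 52.6 and 47.4, then 31.6, 38.97 and 37.6 CPM. At each step and in each strain, all libraries of the later day lay below all libraries of the earlier day. The late log2 fold changes were -0.78 ± 0.13, -1.14 ± 0.18 and -0.52 ± 0.10 (SE), given for AKR/J, then C57BL/6J, then Cav1-null brains, with adjusted p of 0.00506, 0.0117 and 0.00138. The early ones were -0.73, -0.60 and -0.71, called in C57BL/6J and Cav1-null mice and not in AKR/J (adjusted p = 0.0536). Progenitor markers fell in the same phase, 6, 5 and 6 of 8 in the 3 strains (median log2 fold change -0.93, -1.28 and -0.60), with 1, 1 and 0 higher, and their part was not tested. With 1 model of all 27 libraries the Cav1-null late call was lost (adjusted p = 0.116). In C57BL/6J the late call was lost without d15 replicate 1 or 2 or d17 replicate 3 (0.0551, 0.0621 and 0.0741), and the early call without d12 replicate 1 or any d15 replicate (0.0554 to 0.127).

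Sema5a (chr15:32244919-32696487) shares the late fall. AKR/J had 46.9, 55.4 and 55.1 CPM on d15 and 29.5, 27.9 and 26.8 CPM on d17. C57BL/6J went from 114, 115 and 102 to 57.9, 26.1 and 37.5 CPM, and Cav1-null brains from 36.02, 36.2 and 37.8 to 27.1, 30.5 and 28.8 CPM. The days did not overlap in any strain, and the step was the smallest in Cav1-null mice, where d15 was already low. The log2 fold changes were -0.89, -1.38 and -0.34 (adjusted p = 0.00124, 0.0231 and 0.00867), and -0.93, -1.25 and -0.52 with the GC and length trend removed. The C57BL/6J call was lost without any one of the d15 replicates or without d17 replicate 3 (0.0652 to 0.116), and with 1 model of all 27 libraries those of AKR/J (0.0532) and Cav1-null mice (0.609) were. On d12 Sema5a was at 38.7, 38.2 and 17.2 CPM in AKR/J, 99.4, 106 and 42.8 CPM in C57BL/6J and 78.5, 58.1 and 44.9 CPM in Cav1-null brains. From there to d15 it fell in Cav1-null mice (log2 fold change -0.72 ± 0.17, adjusted p = 0.0177). That call was lost without any one d15 replicate (0.0686 to 0.0769) and with 1 model of all 27 libraries (0.112). The AKR/J change of 0.69 was not called (adjusted p = 0.113). The long noncoding RNA Snhg18 (chr15:32196469-32245549) lies on the opposite strand and overlaps only the start of Sema5a. Its reads over its whole length equalled 13.9% of those of Sema5a, how many of them fall in the overlap was not measured, and how reads of opposite strands were told apart is not given in the sources used here.

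Over all members, the early phase in AKR/J had 12 of 31 called and all 12 higher on d15, where 28.9% of all 19935 genes tested were called (14.8% higher). They were 4 of the 6 class 4 semaphorins (Sema4a, Sema4d, Sema4f and Sema4g), Sema6b and Sema6d, Sema7a, the plexins Plxna2, Plxna4 and Plxnc1, and both neuropilins, and none of the 7 secreted class 3 genes. Of these calls, Sema4a was lost with the trend removed (adjusted p = 0.0698), with library sizes alone (0.0501) and without d12 replicate 1 or 3 or d15 replicate 1 or 3 (0.0679 to 0.0934), and Sema4g without the same 4 libraries (0.0554 to 0.062). The median log2 fold change of the members was 0.65 against 0.02 over all genes tested. The largest rise was that of Plxna4 (chr6:32121203-32565193), a receptor of Sema3a and Sema6a. It was at 16.8, 30.7 and 18.3 CPM on d12 and 104, 79.6 and 124 CPM on d15 (log2 fold change 2.17 ± 0.28, adjusted p = 0.00198). In C57BL/6J the same gene went from 129, 187 and 40.5 to 298, 324 and 318 CPM, without overlap but not called (log2 fold change 1.37, adjusted p = 0.0777). In Cav1-null mice it went from 90.5, 74.4 and 58.99 to 103, 107 and 104 CPM (log2 fold change 0.50, adjusted p = 0.0283). That call was lost with the GC and length trend removed (0.166) and with 1 model of all 27 libraries (0.423). It was also lost without d12 replicate 2 or any one d15 replicate (0.0745 to 0.103).

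The trend with GC content and length also moves with the AKR/J early phase. AKR/J d12 replicates 1 and 3 were low for GC-rich and for long genes, and the members are on the whole GC-rich and long. After its removal, 11 members were called higher and 3 lower, where 26.8% of all genes tested were called, 11 of these calls were the same as before, and the members' median fell to 0.43. In the same phase 9 of 10 erythroid and 7 of 9 tested trophoblast and yolk sac markers fell (median log2 fold change -4.59 and -8.09), 5 of 8 progenitor markers fell (-0.79) and 7 of 8 neuron markers rose (1.29). Their part in the members' changes was not tested.

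In Cav1-null mice the early phase had 8 members higher and 5 lower of 31, where 23.4% of all genes tested were called. The median was 0.10. After removal of the trend, 7 were higher and 4 lower (22.0% of all genes). The largest rise was in Sema4f, a membrane semaphorin that has been placed at synapses, from 17.7, 16.4 and 21.3 CPM on d12 to 37.7, 32.1 and 32.02 CPM on d15 (log2 fold change 0.88 ± 0.13, adjusted p = 0.00265). Sema4f also rose in AKR/J, from 6.06, 9.05 and 3.76 to 22.1, 19.7 and 31.5 CPM (log2 fold change 1.90, adjusted p = 0.00622), and was at 23.7, 32.1 and 11.8 and then 39.8, 40.2 and 50.1 CPM in C57BL/6J (adjusted p = 0.0841). Every d15 library again lay above every d12 library of its strain. The other Cav1-null rises were Sema4d, Sema4g, Sema6b, Sema7a, Plxna3, Plxna4 and Nrp1 (log2 0.33 to 0.72), and the falls were Sema5a, Sema5b, Plxna1, Plxnb1 and Plxnb2 (-0.72 to -0.28). Of these, Plxnb1 and Plxnb2 are receptors of class 4 semaphorins and Plxna1 is a receptor of Sema3a and Sema6d. The count fell from 13 to 5, 4 and 7 without d15 replicates 1, 2 and 3, and to 4 with 1 model of all 27 libraries. Of the marker lists, 5 of 8 progenitor markers fell and 1 rose (median log2 fold change -1.08), 4 of 8 neuron markers rose (0.38), 4 of 10 mesenchyme markers fell (-2.23), and 4 of 10 erythroid markers rose and 4 fell (0.18). Their part was not tested.

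In C57BL/6J the early phase had 4 members higher and 1 lower of 31, close to the 14.9% of all genes tested that were called. With the trend removed they were 6 and 2 (21.5% of all genes), the 5 calls among them. The rises were Nrp1 and 3 of the 7 secreted semaphorins, Sema3a, Sema3c and Sema3e, which lie in a row on chromosome 5 with Sema3d. Sema3a, the classical repellent of axons, went from 25.3, 22.5 and 29.5 to 40.4, 39.5 and 41.2 CPM (log2 fold change 0.59, adjusted p = 0.0361). Sema3e, which binds Plxnd1 without a neuropilin, went from 3.76, 6.28 and 4.29 to 10.2, 8.70 and 12.6 CPM (log2 fold change 1.10, adjusted p = 0.0319). The days did not overlap for either gene. The fall was that of Sema5b. The count is fragile: it was 0 without d12 replicate 1 or without any one d15 replicate, and 17 and 15 without d12 replicates 2 and 3. What share of all genes was called in those fits is not given here. The C57BL/6J libraries of d12 differed among themselves, with Nrp1 at 23.9 to 59.3, Nrp2 at 74.5 to 180.3 and Plxna4 at 40.5 to 187 CPM. In this phase 3 of 8 neuron and 4 of 8 oligodendrocyte lineage markers rose (median log2 fold change 0.57 for both), and 3 of 8 progenitor and 3 of 10 erythroid markers fell (-0.48 and -1.11), and their part was not tested.

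**Figure D2:**
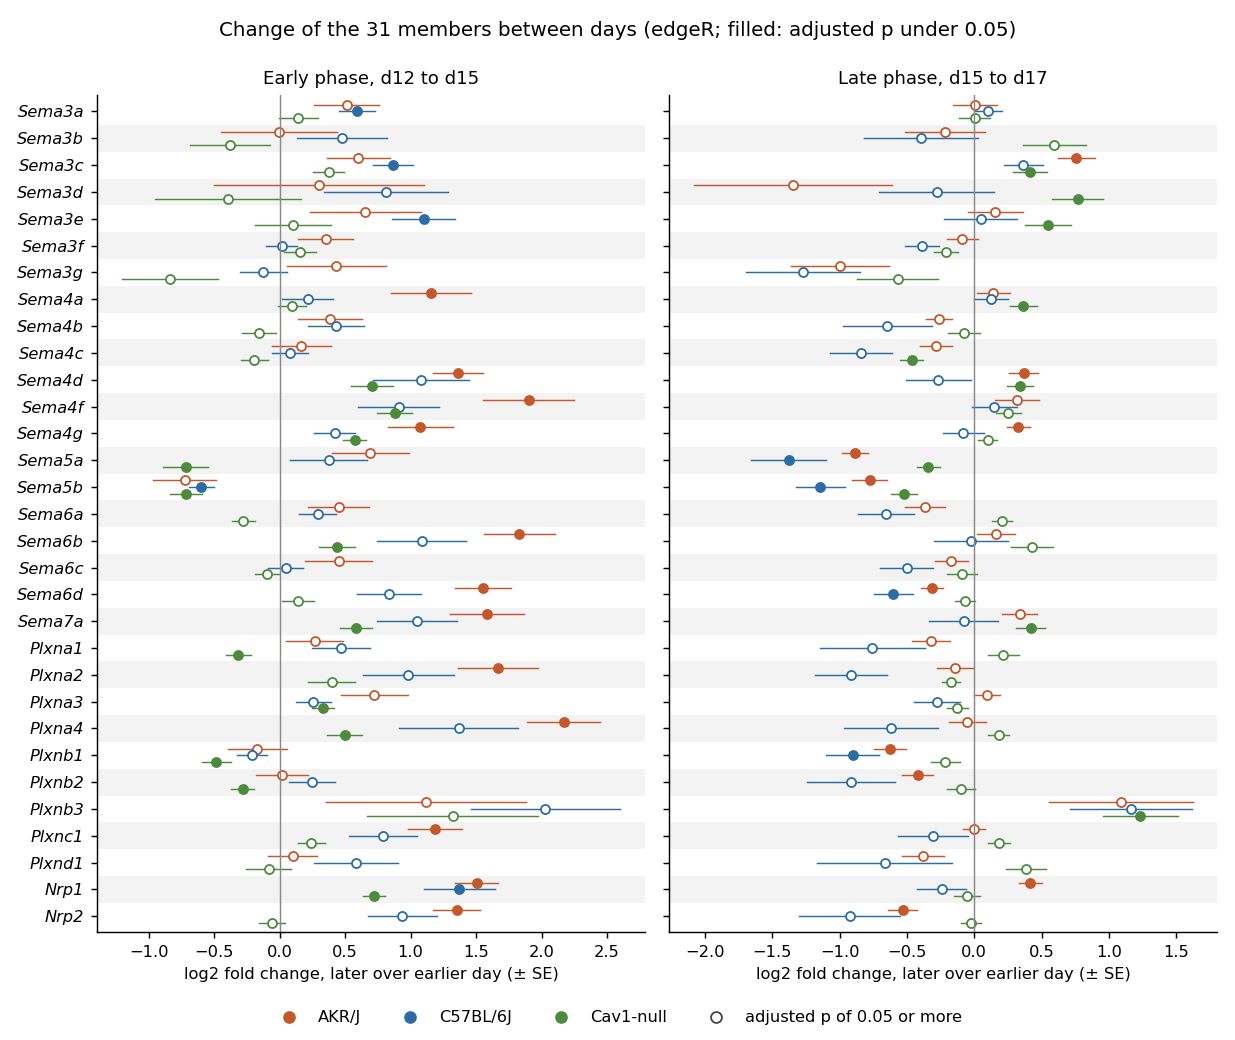
Log2 fold change (horizontal axis, later over earlier day, with SE) of the 31 members in the early phase (left) and the late phase (right), coloured by strain, with filled points for an adjusted p under 0.05. Nrp1 is filled on the right of 0 in all 3 strains in the early phase, and Sema5a and Sema5b are filled on the left of 0 in all 3 strains in the late phase.

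Over the 3 strains, 1 member was called higher in all, 6 were called higher in 2 strains (Sema4d, Sema4f, Sema4g, Sema6b, Sema7a and Plxna4), and Sema5b was called lower in 2. The fold change was above 0 in all 3 strains for 17 of 31 members. Matching shares of all genes over the 3 strains were not computed, so the cross-strain counts of this paragraph are descriptive only. In the single strains 28.9%, 14.9% and 23.4% of all genes tested were called (AKR/J, C57BL/6J and Cav1-null). The 10 members called in no strain in this phase were Sema3b, Sema3d, Sema3f, Sema3g, Sema4b, Sema4c, Sema6a, Sema6c, Plxnb3 and Plxnd1. Sema7a, an axon outgrowth factor, was at 6.92, 12.5 and 7.26 CPM on d12 and 28.02, 22.9 and 32.2 CPM on d15 in AKR/J and at 23.2, 22.9 and 17.9 and 34.3, 32.3 and 28.9 CPM in Cav1-null brains. Sema4g, whose receptors include Plxnb2, was at 62.2, 105 and 58.8 and 182, 147 and 163 CPM in AKR/J and at 119, 118 and 134 and 188, 189.5 and 174 CPM in Cav1-null brains. Both genes were higher in every d15 library than in every d12 library of each strain. Of the members called in no strain, Sema3f is the ligand that holds Nrp2-bearing axons apart and stood at 42.4 to 69.4, 85.9 to 119.6 and 59.6 to 78.5 CPM on d12 and at 67.3 to 85.8, 101 to 104 and 68.7 to 78.03 CPM on d15 (AKR/J, C57BL/6J and Cav1-null).

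In the late phase the numbers of members called were 10 of 31 in AKR/J (4 higher and 6 lower, where 22.1% of all genes tested were called), 4 of 31 in C57BL/6J (all lower, against 13.0%, or 5.58% counting the lower genes alone) and 10 of 31 in Cav1-null mice (7 higher and 3 lower, against 27.3%). With 1 model of all 27 libraries they were 3, 13 and 0. Beside Sema5a and Sema5b, Sema6d and Plxnb1 fell in AKR/J and C57BL/6J. Sema6d is a ligand of Plxna1. In AKR/J it went from 124, 102 and 115 to 91.02, 91.2 and 89.2 CPM and in C57BL/6J from 159, 172 and 172 to 122, 103 and 91.6 CPM (log2 fold change -0.32 and -0.60). In both strains the days did not overlap, and Cav1-null brains were at 87.3 to 94.5 and 79.3 to 90.4 CPM, with no interaction called. The AKR/J call was lost with the trend removed (adjusted p = 0.0986), with 1 model of all 27 libraries (0.33) and without d15 replicate 1 or 3 or d17 replicate 2 or 3 (0.0535 to 0.122), and the C57BL/6J call without any one d15 replicate or d17 replicate 3 (0.12 to 0.152). Plxnb1 changed by -0.62 and -0.90 on the log2 scale in AKR/J and C57BL/6J, with the calls lost without d17 replicate 2 or 3 in AKR/J (0.0583 and 0.0502) and without any one d15 replicate or d17 replicate 3 in C57BL/6J (0.0901 to 0.127).

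Sema3c, a secreted semaphorin that can attract cortical axons, had the largest called rise of the late phase in AKR/J. It was at 34.9, 20.1 and 25.4 CPM on d12, 39.7, 50.8 and 35.4 CPM on d15 and 71.05, 72.9 and 67.1 CPM on d17 (d15 to d17, log2 fold change 0.76 ± 0.14, adjusted p = 0.00708). C57BL/6J had 30.97, 24.8 and 32.01, then 61.00, 50.6 and 54.4, then 72.04, 58.9 and 73.7 CPM, with the early step called (log2 fold change 0.87, adjusted p = 0.0217) and the late step not (adjusted p = 0.131). Cav1-null brains had 33.1, 33.6 and 41.2, then 42.1, 48.4 and 49.3, then 52.7, 56.1 and 76.7 CPM, with the late step called (log2 fold change 0.41, adjusted p = 0.0238; lost without d15 replicate 1 or 2 or d17 replicate 3 at 0.0542 to 0.123). All d17 libraries of a strain lay above all of its d12 libraries, and the 3 strains ended at like levels. The largest called rise of the Cav1-null late phase was that of Plxnb3, a B-type plexin that binds Sema5a, from 0.976, 1.32 and 0.881 to 2.41, 2.41 and 2.67 CPM (log2 fold change 1.23 ± 0.28, adjusted p = 0.0046, lost at 0.266 with 1 model of all 27 libraries). Its level was low on d12, with 0.207, 0.122 and 0.899 CPM in Cav1-null, 0.124, 0.329 and 0.508 CPM in AKR/J and 0.253, 0.158 and 0.413 CPM in C57BL/6J brains. On d17 AKR/J had 1.23, 1.92 and 1.40 CPM and C57BL/6J 1.99, 3.67 and 1.95 CPM, with late log2 fold changes of 1.09 and 1.16 that did not pass the test.

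Other Cav1-null late rises were Sema3d, Sema3e, Sema4a, Sema4d and Sema7a (log2 0.34 to 0.77), and Sema4c fell (-0.46). With the trend removed, 5 members were called higher and 10 lower in this strain, where 32.7% of all genes tested were called, and the rises of Sema3e, Sema4a and Sema4d were not among them. In the same phase 7 of 8 oligodendrocyte lineage and 4 of 8 neuron markers rose (median log2 fold change 0.90 and 0.17) and 6 of 10 erythroid markers fell (-1.30) in Cav1-null brains, and their part was not tested. The AKR/J late calls of a higher level beside Sema3c and Nrp1 were Sema4d and Sema4g (0.37 and 0.33), and those of a lower level beside the ones named were Plxnb2 and Nrp2 (-0.42 and -0.53). With each of the 6 libraries left out in turn, Sema4d was called in 0 of 6 fits, Sema4g in 1 and Plxnb2 in 2. With 1 model of all 27 libraries their adjusted p were 0.48, 0.293 and 0.27, and Plxnb2 was lost with the trend removed too (0.0761). In AKR/J 4 of 10 endothelial and 4 of 10 mesenchyme markers fell in this phase (median -0.70 and -2.42) and 5 of 10 erythroid markers rose and 3 fell (1.22), and their part was not tested. One end of Sema4d overlaps Secisbp2 (chr13:51805610-51838083) on the opposite strand, which had 111% of its reads over its whole length, so its values are uncertain if strands were not told apart. In AKR/J the trend-removed calls were 4 higher and 4 lower, where 18.6% of all genes tested were called, and the count was 3 without d17 replicate 2 and 4 without d17 replicate 3. In C57BL/6J, 1 member was higher and 9 lower with the trend removed (19.3% of all genes tested were called), and 1 was higher and 6 lower with library sizes alone as the scaling. In this strain 6 of 10 erythroid markers rose and 3 fell in this phase (median 1.28), 3 of 8 neuron markers rose (list median -0.14) and 1 of 5 tested cartilage markers fell (-2.48), and their part was not tested. The count as deposited was 0 without d15 replicate 1 or 2 or d17 replicate 3, and 1 without d15 replicate 3. It was 20, all lower, without d17 replicate 1, which was high for most members. What share of all genes was called in those fits is not given here.

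In the late phase 15 members were called in no strain, and the matching share of all genes was not computed. Of the semaphorins these were Sema3a, Sema3b, Sema3f, Sema3g, Sema4b, Sema4f, Sema6a, Sema6b and Sema6c. Of the plexins they were Plxna1, Plxna2, Plxna3, Plxna4, Plxnc1 and Plxnd1. Sema3a, for example, was at 31.3 to 47.8 and 36.4 to 37.4 CPM in AKR/J, at 39.5 to 41.2 and 41.2 to 41.6 CPM in C57BL/6J and at 39.3 to 46.4 and 34.3 to 49.3 CPM in Cav1-null brains on d15 and d17. Plxna4 was at 91.96 to 101, 115 to 315 and 109 to 129 CPM on d17 in the 3 strains, with late log2 fold changes of -0.05, -0.62 and 0.18.

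The interaction of strain and day, fitted on 12 libraries at a time, asked if a member changed more in one strain than in another. By edgeR's quasi-likelihood test no member was called in any of the 4 interactions, where 0.0711% and 0.00468% (AKR/J against C57BL/6J, early and late) and 0.00472% and 0.252% (Cav1-null against C57BL/6J, early and late) of all genes tested were called. At an unadjusted p under 0.05 there were 1 and 6 members, then 11 and 9. DESeq2 called 0 and 0, then 1 and 3. Sema6a was nearest in the late Cav1-null interaction, where the 2 strains' log2 fold changes lay 0.83 ± 0.22 (SE) apart (adjusted p = 0.0853). Without C57BL/6J d17 replicate 1, which stands apart from the other d17 libraries, 20 members were called there and 12 in the late AKR/J interaction. Without C57BL/6J d12 replicate 2, 7 were called in the early Cav1-null interaction, and without AKR/J d12 replicate 2, 3 were called in the early AKR/J interaction. Shares of all genes called in these fits are not given here, so the counts show only how the calls depend on single libraries.

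Between strains on the same day, every called member was lower than in C57BL/6J, and these differences run with a trend of the libraries along GC content. For each library the median deviation of genes from their own mean over all libraries was taken in the 20% richest in GC and set against the 20% poorest. The 3 C57BL/6J libraries of d15, C57BL/6J d12 replicates 1 and 2 and C57BL/6J d17 replicate 1 were high (0.43 to 0.78 on the log2 scale), AKR/J d12 replicates 1 and 3 were low (-0.61 and -0.59), and the remaining 19 libraries lay between -0.46 and 0.25. The members had a median GC content of 55.1% and a median length of 6877 bases in their longest transcript, against 49.0% and 4282 bases over the 14977 genes used for the trend. Over the 30 members above 1 CPM in at least 20 libraries, the median deviation was 0.87 to 0.92 in C57BL/6J d15 and -0.79 and -0.80 in AKR/J d12 replicates 1 and 3 (log2). It was -0.55 in AKR/J d12 replicate 2, the next lowest, whose GC value of -0.17 lay within those of the 19. The strain differences were therefore also computed with an offset that removes each library's trend with GC content and length, chosen after seeing the data. All comparisons with C57BL/6J of a day share its 3 libraries.

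**Figure D3:**
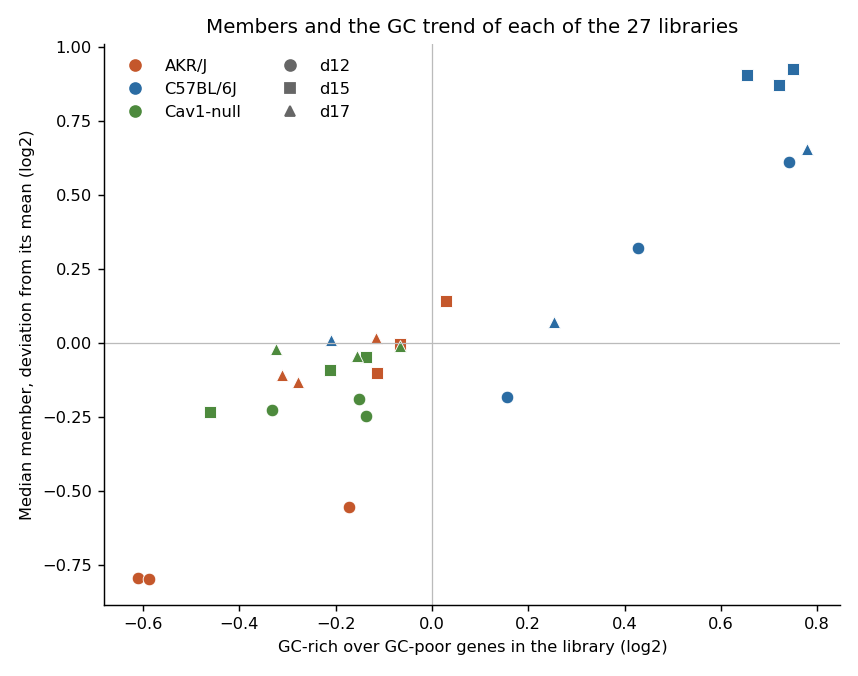
Deviation of the median member from its mean over all libraries (vertical axis, log2) against the level of the 20% of genes richest in GC over the 20% poorest (horizontal axis, log2) in each of the 27 libraries, coloured by strain and shaped by day. The C57BL/6J libraries of d15 lie at the top right (0.87 to 0.92) and AKR/J d12 replicates 1 and 3 at the bottom left (-0.79 and -0.80).

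On d12, 19 of 31 members were lower in AKR/J than in C57BL/6J and none higher, where 28.6% of all genes tested were called (14.1% lower). Once the trend was removed, 4 were called, all lower, where 16.8% of all genes tested were called, and the members' median moved from -0.96 to -0.27 (-0.04 over all genes). The 4 were Plxna4, Sema7a, Sema3g and Nrp2. Plxna4 was at 16.8, 30.7 and 18.3 CPM in AKR/J and 129, 187 and 40.5 CPM in C57BL/6J (log2 difference -2.28, or -1.49 with the trend removed, adjusted p = 0.0154 and 0.033). Sema7a, which acts through Plxnc1 and integrins, was at 6.92, 12.5 and 7.26 and 32.5, 45.9 and 16.5 CPM (log2 -1.67 and -1.24). Sema3g, a secreted ligand of Nrp2, was at 2.60, 3.13 and 1.83 and 7.99, 9.62 and 7.05 CPM (-1.55 and -1.02). None of the 4 overlapped between the strains, Nrp2 included (49.3, 44.7 and 35.9 against 119.5, 180.3 and 74.5 CPM, log2 -1.38 and -0.83). The count of 19 was 0 without AKR/J d12 replicate 1, without AKR/J d12 replicate 3 or without C57BL/6J d12 replicate 2, and 1 without C57BL/6J d12 replicate 1. On this day 10 of 10 erythroid markers reached 1 CPM in both strains and summed to 1942 to 4663 CPM in C57BL/6J, far below AKR/J, whereas the 8 neuron markers summed to 2029 to 2557 CPM in AKR/J, against 3771 to 6426 CPM in C57BL/6J. Called lower on the AKR/J side were 4 of 8 neuron (median log2 difference -1.01), 4 of 10 endothelial (-0.88) and 2 of 8 oligodendrocyte lineage markers (-1.07), and 9 of 10 erythroid (3.78, 1 lower), 5 of 9 tested trophoblast and yolk sac (5.08) and 3 of 6 tested epidermis and lens markers (1.95) were higher. Their part in the comparison was not tested.

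On d15, 24 of 31 members were lower in AKR/J and none higher, where 41.1% of all genes tested were called (22.3% lower), and 20 to 26 were called with any one library left out. Once the trend was removed, 12 were called, all lower, where 21.8% of all genes tested were called, and 11 of these were among the 24, the other being Sema3c (-0.49 on the log2 scale). The 11 were the receptors Plxna1, Plxna2, Plxna4, Plxnb2, Plxnc1 and Plxnd1, both neuropilins and the semaphorins Sema4d, Sema5a and Sema7a. Plxna1 was at 137, 124 and 184 CPM in AKR/J and 435, 474 and 454 CPM in C57BL/6J (log2 difference -1.55, or -0.78 with the trend removed). Plxnd1, the receptor of Sema3e on vessels and neurons, was at 30.8, 42.2 and 28.6 and 125, 86.1 and 107 CPM (-1.57 and -0.67). Nrp1 was at 49.6 to 56.6 and 108 to 110.1 CPM and moved little with the setting (-0.96 and -0.86). The libraries of the strains did not overlap for any of these 11 genes. The 10 endothelial markers summed to 139.7 to 174 CPM on d15 in AKR/J, against 258 to 353 CPM in C57BL/6J, with 8 of 10 lower (median log2 difference -0.84). Of the other lists, 4 of 8 neuron (-0.44), 4 of 8 oligodendrocyte lineage (-0.61, 1 higher) and 3 of 8 progenitor markers (-0.18, 1 higher) were lower, and 7 of 10 erythroid markers were higher and 1 lower (1.33). Their part was not tested.

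On both d12 and d15, 18 members were called lower in AKR/J than in C57BL/6J, and for each of them the strains did not overlap on either day. The share of all genes that do the same was not computed, so the 18 cannot be read against it. On the single days 14.1% and 22.3% of all genes tested were called lower. The count of 18 rests on the d12 comparison, whose count fell from 19 to 0 without single libraries. Among the class 4 semaphorins, Sema4c was at 56.9, 85.3 and 52.3 CPM in AKR/J and 124, 144 and 95.1 CPM in C57BL/6J on d12, and at 80.4, 62.3 and 82.6 and 131, 139 and 126 CPM on d15. Sema4d, a ligand of Plxnb1, was at 9.19, 10.3 and 8.38 CPM in AKR/J and 29.5, 36.6 and 10.95 CPM in C57BL/6J on d12, and at 26.6, 21.5 and 26.2 and 58.4, 53.7 and 55.1 CPM on d15. Sema4g was at 62.2, 105 and 58.8 CPM in AKR/J and 163, 199 and 125 CPM in C57BL/6J on d12, and at 182, 147 and 163 and 208, 229 and 233 CPM on d15. With the trend removed, Sema4c was at 0.12 and 0.00 (log2, d12 and d15) and Sema4g at -0.36 and 0.15, so both lost the calls, and the sign turned on both days for Sema4c and on d15 for Sema4g. Sema4f differed by -1.68 on d12 and -0.77 on d15 and kept its sign (-1.13 and -0.30) but not the calls.

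Among the class 6 semaphorins, which act on A-type plexins, Sema6b was at 8.57, 16.1 and 10.1 CPM in AKR/J and 47.9, 57.7 and 19.2 CPM in C57BL/6J on d12, and at 44.5, 34.9 and 48.9 and 82.9, 92.7 and 96.2 CPM on d15. Sema6c was at 74.1, 141 and 88.3 CPM in AKR/J and 220.4, 238 and 165 CPM in C57BL/6J on d12, and at 149, 119 and 160.2 and 211, 220.1 and 232 CPM on d15. Sema6d was at 28.1, 46.6 and 37.9 CPM in AKR/J and 112, 107 and 54.5 CPM in C57BL/6J on d12, and at 124, 102 and 115 and 159, 172 and 172 CPM on d15. Their log2 differences ran from -1.69 to -0.49 and were not called on either day with the trend removed, where Sema6c turned to 0.13 on d15. Among the plexins, Plxna2, a receptor of Sema6a, was at 71.7, 113 and 51.3 CPM in AKR/J and 340.1, 388 and 130.3 CPM in C57BL/6J on d12, and at 298, 206 and 271 and 571, 601 and 570.5 CPM on d15. Plxnc1, the receptor of Sema7a, was at 27.4, 38.99 and 24.5 CPM in AKR/J and 93.4, 99.6 and 45.3 CPM in C57BL/6J on d12, and at 71.6, 65.7 and 76.6 and 136, 149 and 139 CPM on d15. Plxnb2 was at 144, 184 and 122 CPM in AKR/J and 275, 398 and 233 CPM in C57BL/6J on d12, and at 149, 146 and 176 and 378, 369 and 356 CPM on d15. Of these, Plxna2 and Plxnc1 kept the sign on both days with the trend removed, whereas Plxnb2 changed its sign on d12 (-0.86 to 0.04). Sema3g was at 2.67, 4.83 and 3.07 CPM in AKR/J and 7.97, 6.85 and 8.49 CPM in C57BL/6J on d15. Sema7a was at 28.02, 22.9 and 32.2 and 62.6, 67.4 and 71.4 CPM on d15. Plxna1 was at 103, 147 and 107 and 284, 450.5 and 223 CPM and Plxnd1 at 32.7, 29.8 and 29.5 and 56.2, 109.8 and 42.2 CPM on d12, where Plxnd1 changed its sign with the trend removed (-1.03 to 0.15).

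Cav1-null and C57BL/6J brains were compared on d15 with 27 of 31 members called lower and none higher in Cav1-null mice, where 58.6% of all genes tested were called (31.8% lower), and 25 to 28 were called with any one library left out. With the trend removed, 18 members were called lower and 6 higher, where 47.2% of all genes tested were called, and the members' median moved from -0.99 to -0.43. The 16 genes called lower both ways were Sema3e, Sema3g, Sema4b, Sema4d, Sema5a, Sema6a, Sema6d, Sema7a, Plxna1, Plxna2, Plxna4, Plxnb2, Plxnc1, Plxnd1, Nrp1 and Nrp2. Plxna1 had the largest difference, 114, 104 and 94.8 CPM in Cav1-null and 435, 474 and 454 CPM in C57BL/6J brains (log2 -2.08, or -1.12 with the trend removed). Nrp2 was at 83.99, 79.9 and 78.3 and 245, 249 and 241 CPM (-1.56 and -1.02). Sema5a was at 36.02, 36.2 and 37.8 and 114, 115 and 102 CPM (-1.55 and -1.19). The strains did not overlap for these 3 genes. The genes called lower as deposited and higher with the trend removed were Sema3f, Sema4a, Sema4f, Sema4g, Sema6c and Plxna3, whose log2 differences went from -0.76 to -0.24 as deposited and from 0.18 to 0.54 with the trend removed. For these 6 genes the direction turned with the setting. Marker lists moved in this comparison too. Called lower in Cav1-null brains were 8 of 10 endothelial (median log2 difference -1.37), 7 of 8 progenitor (-0.98), 7 of 8 oligodendrocyte lineage (-1.15), 6 of 10 mesenchyme (-2.03) and 4 of 5 tested cartilage markers (-3.14), 5 of 8 neuron markers were lower and 3 higher (-0.26), and 6 of 10 erythroid markers were higher and 2 lower (1.28). Their part was not tested.

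**Figure D4:**
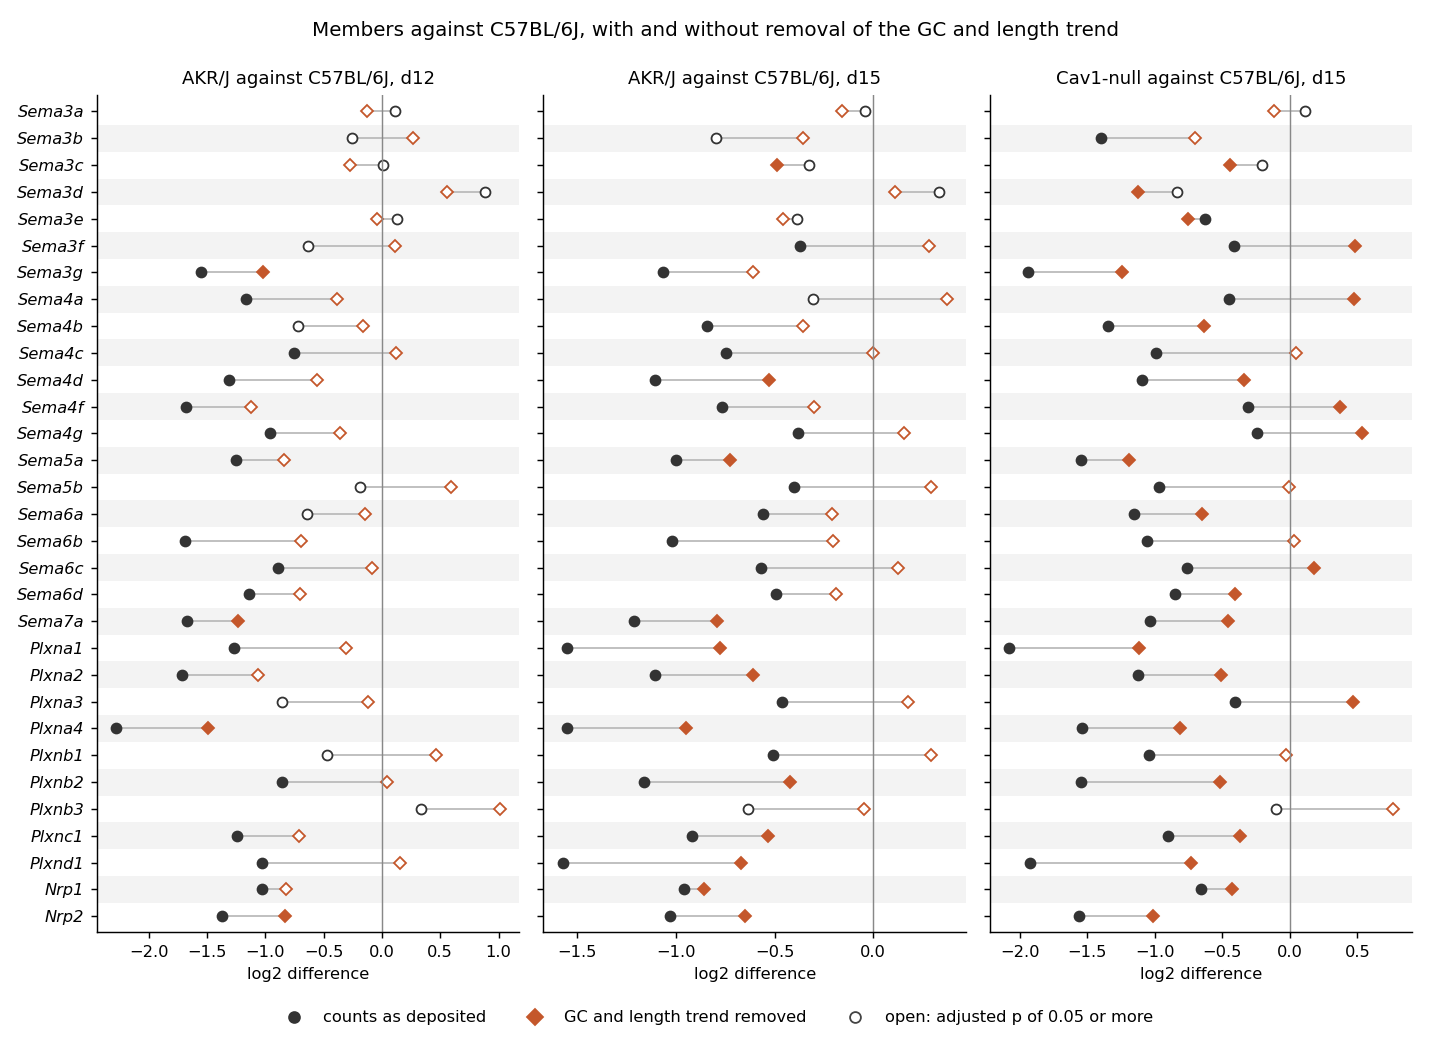
Log2 difference from C57BL/6J (horizontal axis) of the 31 members in AKR/J on d12 and d15 and in Cav1-null mice on d15, from the deposited counts (circles) and with the GC and length trend removed (diamonds), filled for an adjusted p under 0.05. Plxna4, Sema7a and Nrp2 are filled left of 0 in all 3 panels under both settings, whereas Sema4g, Plxna3 and Sema3f move from left to right of 0 on d15 when the trend is removed.

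On d17 no member was called in AKR/J against C57BL/6J by edgeR's quasi-likelihood test, where 0.742% of all genes tested were called. There were 9 members at an unadjusted p under 0.05, DESeq2 called 5 and edgeR's likelihood ratio test 3, all lower in AKR/J. For Cav1-null against C57BL/6J, no member was called on d12 (0 of 30 tested, 0% of all genes; 13 at an unadjusted p under 0.05; 8 by DESeq2 and 8 by the likelihood ratio test) or on d17 (0 of 31, 0.0491% of all genes; 4 at an unadjusted p under 0.05; 0 by DESeq2). Plxnb3 did not pass the filter on low counts in the d12 comparison. The C57BL/6J libraries spread widely on both days. On d17, Plxna1 was at 435, 144 and 189.5 CPM in C57BL/6J and at 102, 145 and 116 CPM in Cav1-null brains, and of the C57BL/6J libraries replicate 1 alone stood far above. Without C57BL/6J d17 replicate 2, 15 members were called on d17 in AKR/J and 9 in Cav1-null mice. Without C57BL/6J d12 replicate 3, 14 were called on d12 in Cav1-null mice. All of these were lower than in C57BL/6J. Shares of all genes called in these fits are not given here, so the counts carry no background.

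On chromosome 6, which carries the disrupted Cav1, lie Plxna4, Sema4f, Plxna1 and Plxnd1, at 14.8, 65.5, 71.9 and 98.6 megabases from the end of Cav1. All 4 were lower in Cav1-null than in C57BL/6J brains on d15 as deposited, and Sema4f was higher with the trend removed (-0.31 and 0.37). Strain-derived sequence around Cav1 was not examined here.

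Other genes of the pathway were counted from a list of 53 coreceptors, further ligands, and proteins that act downstream of plexins. In the early phase 17 of 53 were higher and 2 lower in AKR/J, 9 and 1 in C57BL/6J, and 8 and 7 in Cav1-null mice, where 28.9%, 14.9% and 23.4% of all genes tested were called. In the late phase the numbers were 7 and 6, 3 and 3, and 18 and 2, beside 22.1%, 13.0% and 27.3% of all genes. Of the 12 coreceptors, Chl1, an adhesion molecule that pairs with Nrp1, rose in the early phase in all 3 strains (log2 fold change 2.56, 1.48 and 0.94 in the same order of strains). The Mical enzymes, which oxidise actin downstream of plexins, were led by Mical2. It rose in both phases in all 3 strains, by 1.54, 1.47 and 2.06 in the early phase and by 1.62, 1.67 and 1.59 in the late phase. Mical3 rose in the early phase in all 3 (1.05, 1.02 and 0.57). Rnd1, a small GTPase that binds plexins, rose in the late phase in all 3 (0.80, 0.84 and 0.75). No gene of the 7 further neuropilin ligands and receptors, Vegfa and Kdr among them, and none of the 5 Crmp genes was called the same way in all 3 strains. Against C57BL/6J on d15, 33 of the 53 were lower and 3 higher in AKR/J (22.3% of all genes were lower), and 41 lower and 5 higher in Cav1-null mice (31.8% lower). This list was not recounted with the GC and length trend removed, a setting under which members lost calls or changed sign in these comparisons.

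Splice junction reads gave a second readout for 27 of the 31 members. A pair of junctions that share one splice site was followed as the share of reads on the first of them, and it was called when d12 and d17 did not overlap in the same direction in all 3 strains and the mean moved by at least 10 percentage points in each. With at least 20 reads in each d12 and d17 library, 5 pairs of 4 members could be followed and 0 were called, against 162 of 4030 pairs over all genes (4.02%). With at least 10 reads, 17 pairs of 6 members could be followed and 1 was called, against 250 of 6098 pairs (4.10%). The authors left out junctions under 10 reads in all samples, and the shares rest on small numbers.

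Of the pairs followed with 20 reads, the one that moved most alike in the strains was in Sema6c, a membrane semaphorin, and it is shown because it changes the coding sequence. One junction skips an exon of 96 bases, or 32 codons, on chr3:95079102-95079197 (GRCm39, plus strand), and the other leaves it for the same acceptor. The annotation (GENCODE vM39) has this exon as coding in 30 transcripts of Sema6c. The exon is printed in capitals, with 12 bases of intron on either side in lower case.
Sema6c exon: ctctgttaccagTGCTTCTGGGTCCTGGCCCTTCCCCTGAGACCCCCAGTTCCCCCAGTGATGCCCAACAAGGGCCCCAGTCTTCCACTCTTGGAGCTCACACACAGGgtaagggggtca
The share of reads that skip the exon was 50%, 73.2% and 86.7% in AKR/J on d12 and 86%, 68.4% and 86.8% on d17. It was 74.3%, 81% and 71.4% and then 87%, 79.3% and 92.7% in C57BL/6J, and 84%, 81.6% and 83.2% and then 87.3%, 92.4% and 94.7% in Cav1-null mice, from 20 to 232 reads a library on these days. The mean moved by 10.5, 10.7 and 8.5 percentage points. The days overlapped in AKR/J and C57BL/6J and not in Cav1-null mice, so the pair was not called.

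Sema3f, the ligand of Nrp2, used 2 donor sites that lie 19 bases apart (chr9:107562524-107562542, minus strand). The stretch between the donors, printed in capitals after 30 bases of the exon, is kept by the first junction and is cut out by the second, and its length is not a multiple of 3.
Sema3f donors: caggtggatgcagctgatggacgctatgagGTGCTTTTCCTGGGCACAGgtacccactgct
The capitals begin with the GT of the upstream donor, and the GT of the other donor follows them. The share of reads that keep the stretch was 81.5% to 100% on d12 and 73.5% to 90% on d17 in AKR/J, 71.3% to 87.2% and 77.8% to 89.4% in C57BL/6J, and 74.5% to 86.5% and 76.5% to 79.5% in Cav1-null mice. The downstream donor was thus the main one in every library, and the days overlapped in each strain.

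The pair called with at least 10 reads was in Sema6a, the membrane ligand of Plxna2 and Plxna4. Its junctions leave the same donor over an intron of 27001 or of 116 bases. Another junction of this donor, over 5812 bases, is in neither count of the pair, and it was listed at 0 in 7 of 27 libraries and reached 84 reads in others. Of the pair's reads, those on the longer junction made up 16.7%, 18.2% and 8.3% in AKR/J on d12, 52%, 50% and 50% on d15 and 68%, 72.7% and 60.6% on d17. C57BL/6J had 48%, 47.6% and 12.2% on d12, 60%, 59.1% and 60% on d15 and 72.7%, 77.6% and 62.2% on d17. Cav1-null brains had 45.5%, 39.1% and 64.3%, then 53.6%, 69.6% and 85.3%, then 68%, 69.4% and 84.4%. From d12 to d17 the mean share moved by 52.7, 34.9 and 24.3 percentage points without overlap between these days in any strain. The d12 level was lowest in AKR/J and one C57BL/6J library, and the d17 levels of the strains overlapped. Each share rests on 12 to 90 reads, and this pair was picked out by the lower read minimum, one of the other settings tried. As a share of all reads at the donor, the junction over 5812 bases included and chosen after seeing the data, the longer junction took 3.1% to 10.5% on d12 and 31.5% to 60.6% on d17 in AKR/J, 12.2% to 47.6% and 35.4% to 62.3% in C57BL/6J, and 18% to 26.5% and 39.1% to 64.3% in Cav1-null brains. On this measure the days overlapped in C57BL/6J, so the pair would not be called. The overlap came from d12 replicate 2 (47.6%), where the junction over 5812 bases was listed at 0. The d17 libraries of this strain had 41, 12 and 28 reads on it. A listed 0 cannot be told apart from a filtered entry here, so this measure cannot decide the call.

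**Figure D5:**
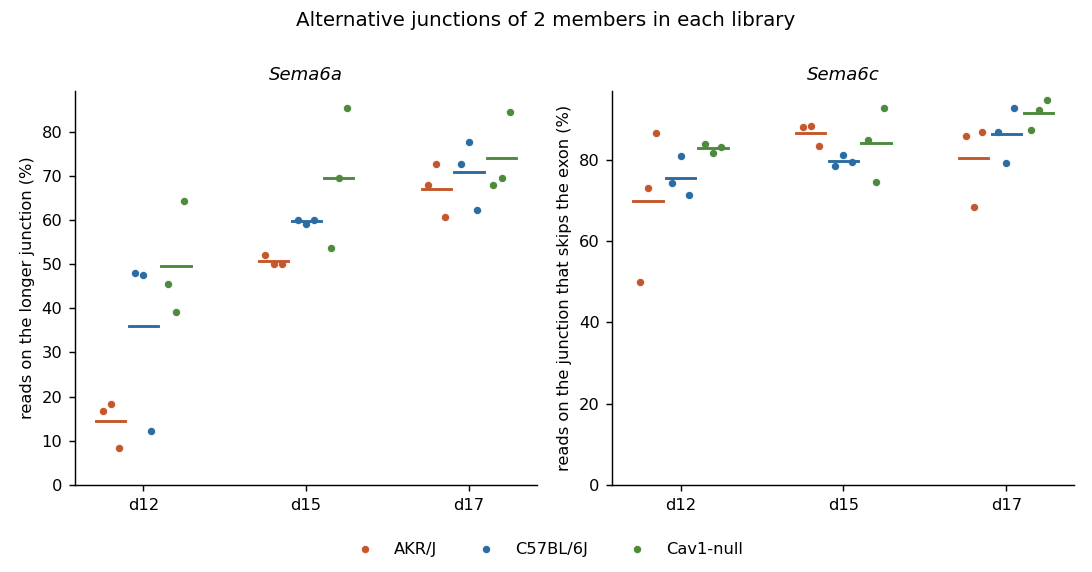
Share of a pair's reads (%, vertical axis from 0) on the longer of 2 junctions of Sema6a (left; another junction of the donor is left out) and on the junction of Sema6c that skips the exon (right), by day and strain, with 1 point for each library and a bar for the mean. In Sema6a the d17 libraries lie above the d12 libraries of their strain by 24.3 to 52.7 points in the mean, whereas in Sema6c the days overlap in AKR/J and C57BL/6J.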

How the data were processed

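RNA of 27 whole fetal brains was analysed in 9 groups of 3 libraries, by strain and day as the labels give them. The authors deposited read counts per gene and per splice junction, not normalized. Per the paper's methods and the labels, they used FastQC, cutadapt, fastp and STAR on GRCm39 with Ensembl annotation. They left out junctions with multi-mapped reads or short overhangs, and those under 10 reads in all samples. The counting tool and the use of strand are not given in the sources used here. DNA methylation and sequence variants were not analysed here. Libraries held 26363697 to 39759702 reads, and no 2 replicates agreed within sampling noise (chi-square per degree of freedom 5.53 to 339.76).

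Counts were fitted for each pair of groups with edgeR 4.0.16 in R 4.3.3 (filterByExpr, TMM, quasi-likelihood F-test, two-sided), and p-values were adjusted by the Benjamini-Hochberg method over all genes tested, with 0.05 as the threshold. Interactions were fitted on the 12 libraries of both strains and days. CPM used TMM factors over all 27 libraries. Tables and figures were made with Python 3.11.15, pandas 2.3.3 and matplotlib 3.10.9. The scripts were tested on simulated counts. Named with library values were members called the same way in all 3 strains in a phase, the largest called rise and fall of each day comparison, and members called the same way against C57BL/6J on at least 2 days. Other members given by library, and both junction pairs printed, are examples chosen after their values were seen. Pathway genes were named when called the same way in all 3 strains. Alternatives were DESeq2 1.42.0, edgeR's likelihood ratio test, other scalings, no filter on low counts, 1 model of all 27 libraries, a replicate block and leaving out each library. The GC and length offset (natural splines, longest GENCODE vM39 transcript) was chosen after seeing the data. The members and lists were chosen with earlier results of these data known.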

Additional observations from a re-analysis of the deposited data

Results flagged for a closer look

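The members below had changes of opposite sign in different strains between the same days, and in each strain named the days did not overlap. Only the Sema5a change in Cav1-null mice was called, and the others did not pass the test. How many of all genes show such changes was not computed. The difference between the strains named was not tested where both are AKR/J and Cav1-null. Sema5a moved by 0.69 on the log2 scale in AKR/J and by -0.72 in Cav1-null mice from d12 to d15, and the Cav1-null change was called (with the GC and length trend removed the values were 0.18 and -0.83). Sema6a moved by 0.45 in AKR/J and by -0.28 in Cav1-null mice over the same days, from 42.9, 69.1 and 64.9 to 72.4, 71.6 and 106 CPM and from 67.8, 63.9 and 72.2 to 53.5, 55.7 and 58.9 CPM, and with the trend removed the values were 0.00 and -0.28. From d15 to d17 Sema6a moved by -0.37 in AKR/J, by -0.65 in C57BL/6J (124, 131 and 129 to 105, 63.4 and 65.7 CPM) and by 0.21 in Cav1-null mice, and the interaction of C57BL/6J and Cav1-null was not called (adjusted p = 0.0853, edgeR). Plxnd1 moved by -0.38 in AKR/J and by 0.38 in Cav1-null mice from d15 to d17, from 30.8, 42.2 and 28.6 to 27.1, 23.3 and 27.1 CPM and from 30.4, 30.4 and 20.9 to 30.7, 42.4 and 33.1 CPM, with -0.24 and 0.17 once the trend was removed.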

How the results depend on the processing

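Counts of called members are given here where they moved by over 1.5 times, other than with a library left out. With 1 model of all 27 libraries they were 19, 15 and 4 in the early phase (AKR/J, C57BL/6J and Cav1-null), 3, 13 and 0 in the late phase, 2 for AKR/J against C57BL/6J on d17 and 8 for Cav1-null against C57BL/6J on d12. DESeq2 and edgeR's likelihood ratio test gave 14 and 15 for C57BL/6J early, 10 and 9 for C57BL/6J late, 5 and 3 for AKR/J against C57BL/6J on d17, 8 and 8 for Cav1-null against C57BL/6J on d12, and 3 and 2 for the late Cav1-null interaction, and DESeq2 gave 1 for the early one. Without the filter on low counts they were 13 and 7 for C57BL/6J early and late, 2 and 5 for the strains on d17 (AKR/J) and d12 (Cav1-null), and 2 for the late Cav1-null interaction. Library sizes alone gave 7 for C57BL/6J late and put the median of all genes at 0.46 in AKR/J early, -0.38 in AKR/J against C57BL/6J on d12 and 0.23 and 0.21 in AKR/J and Cav1-null against C57BL/6J on d15, where TMM gave 0.02, 0.02, 0.06 and 0.03 (log2). With the GC and length trend removed the counts were 8 and 10 for C57BL/6J early and late and 4 and 12 for AKR/J against C57BL/6J on d12 and d15. The junction count was 1 at 10 reads, and no pair of a member could be followed at 50 reads.

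With the trend removed the sign turned for Sema4c (0.12), Plxnd1 (0.15), Plxnb2 (0.042) in AKR/J against C57BL/6J on d12, for Sema4g (0.15), Sema4c (0.002), Plxna3 (0.17), Sema3f (0.28), Sema6c (0.13), Sema5b (0.29), Plxnb1 (0.29) on d15, and for Sema4f (0.37), Sema6b (0.029), Sema4g (0.54), Sema4c (0.044), Sema4a (0.47), Plxna3 (0.47), Sema3f (0.48), Sema6c (0.18) in Cav1-null against C57BL/6J on d15 (log2). Of 124 calls of single members, 29 more lost the threshold there, 32 did with 1 model, 14 with library sizes alone, 15 with the replicate block, 2 with RLE scaling, 2 without the filter and 0 with DESeq2 or the likelihood ratio test.

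With each library left out in turn, the counts ranged from 10 to 16, 0 to 17 and 4 to 19 in the early phase (AKR/J, C57BL/6J and Cav1-null), from 3 to 12, 0 to 20 and 7 to 14 in the late phase, from 0 to 22, 20 to 26 and 0 to 15 for AKR/J against C57BL/6J and 0 to 14, 25 to 28 and 0 to 9 for Cav1-null against C57BL/6J (d12, d15 and d17), from 0 to 3 and 0 to 12 in the AKR/J interactions and 0 to 7 and 0 to 20 in the Cav1-null ones (early and late). The junction count, recomputed without replicate 1, 2 or 3 of every group at once, was 0 each time. Shares of all genes called in the fits with a library left out are not given here. The cause of these shifts was not tested.

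The libraries share only a replicate number, since same-numbered libraries had correlations of -0.432 to 0.362 and 0 of 12 comparisons had every pair over 0.1. With the replicate block, 6 members were called in AKR/J late, 0 in C57BL/6J early and 1 in AKR/J against C57BL/6J on d17.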

Other observations

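In the chromosome 5 row of secreted semaphorins, the late log2 fold changes in Cav1-null mice were 0.77 for Sema3d, 0.00 for Sema3a, 0.55 for Sema3e and 0.41 for Sema3c, and all but Sema3a were called. Among genes that overlap a member, Mrpl43 had 4.94% of the reads of Sema4g and D430040D24Rik 4.19% of those of Sema4c.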
